A study of Mus musculus with 6 samples.

Results

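The EphB receptors and their ephrin-B ligands are 8 of the 55433 genes counted in each library: the receptor genes Ephb1, Ephb2, Ephb3, Ephb4 and Ephb6 and the ligand genes Efnb1, Efnb2 and Efnb3. They were taken by gene symbol as the whole family, and all 8 had counts high enough to be tested. RNA was sequenced from whole spinal cords of C57BL/6J mouse embryos at E13.5, in 3 embryos of genotype NFIA-ff, labelled control, and 3 of genotype NFIA-ff with Nestin-cre, labelled NFIAcKO. The NFIA-ff genotype was shared by both groups, and cre was present in the NFIAcKO embryos alone, so effects of the transgene cannot be told apart from those of the deletion. Nestin-cre expresses cre recombinase mainly in neural progenitors and so reaches their progeny, and vessels, meninges and blood of the dissected cord are not its intended targets. The labels name no litters, and p-values measure the spread between these 6 samples. The series concerns the role of the transcription factor NFIA in motor neurons of the developing cord.

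EphB receptors are receptor tyrosine kinases of the cell surface, and ephrin-Bs are transmembrane proteins on the facing cell. Contact between them signals in both directions, forward through the kinase and reverse through the ephrin-B tail, and usually makes a growth cone or cell withdraw. In the embryonic cord this system is known for steering commissural axons, for sending axons of medial limb-innervating motor neurons into the ventral limb, and for keeping axons from crossing the midline. In blood vessels the same family separates arteries from veins.

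The libraries held 43393053 to 51465763 counts assigned to genes. Nfia itself was higher in the libraries labelled NFIAcKO, at 106, 108 and 119 CPM (counts scaled to a common library size, with sizes adjusted by the TMM method) in replicates 1 to 3, against 60.1, 59.1 and 79.2 CPM in those labelled control (log2 fold change 0.75, SE 0.11, edgeR adjusted p = 0.0031). A gene's count also takes in reads from exons outside the floxed part, so this level does not test the deletion, and because it goes against the label, groups are named by their labels throughout and every direction is relative to those labels. Long transcripts were counted relatively more often in the libraries labelled NFIAcKO than in those labelled control. This was read from log2 CPM centred on each gene's own mean over the 6 libraries. With each doubling of exonic length it changed by -0.117 to -0.0188 in libraries labelled control and 0.0396 to 0.0931 in libraries labelled NFIAcKO. Read by Xist, replicate 2 of each group was female and the other 4 embryos male. The deposited file names carry a number that the labels do not explain. One such number is shared by replicates 1 and 2 of both groups and another by replicate 3 of both. The 8 pan-neuronal markers were abundant in every library, and they summed to 8415 to 8733 CPM in libraries labelled control and 9474 to 9937 CPM in libraries labelled NFIAcKO. In edgeR 3 of the 8 rose (Dcx, Elavl3 and Rbfox3), beside 7.86% of all tested genes, and the other 5 did not pass. Log2 fold changes of those 5 were 0.24 for Elavl4, 0.17 for Map2, 0.05 for Tubb3, -0.05 for Snap25 and -0.13 for Stmn2. The sums carry the length trend, and Dcx and Map2 have 12647 and 16449 bp of exons. With a length and GC trend removed from each library 4 of the 8 rose, beside 3.82% of all tested genes. The part of these markers in the levels described here was not tested. In bulk tissue, fewer cells of a type and less RNA per cell cannot be told apart.

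Of the 5 receptors, Ephb1 and Ephb2 rose in the libraries labelled NFIAcKO, while the other 3 and all 3 ligands did not pass the test. The rises were small, with NFIAcKO at 1.25 times the control level for Ephb1 and 1.36 times for Ephb2. Groups were compared on counts with edgeR's quasi-likelihood F test over 17711 genes, and a gene was said to rise or fall at a Benjamini-Hochberg adjusted p under 0.05. By that rule 2 of the 8 members rose and 0 fell, beside 7.86% of all tested genes higher and 6.08% lower (13.9% in either direction). No member fell at an unadjusted p under 0.05 either. The same 2 rose and 0 fell in DESeq2, where 25% of 13207 genes passed (14.4% higher, 10.6% lower), and in limma-voom, where 12.3% did (7.37% higher, 4.93% lower). With upper quartile scaling in place of TMM the background split turned to 5.97% higher and 8.1% lower of 14.1%, and again Ephb1 and Ephb2 rose. Groups of 3 did not overlap for 2 of 8 members, against 33.4% of all tested genes (17.3% with NFIAcKO above and 16.1% with it below), so the share of members set apart was no larger than the background. The median log2 fold change of the 8 was 0.14, against -0.01 over all tested genes. Their median exonic length was 5640.5 bp, against 3976 bp. With a length and GC trend removed from each library the medians of the log2 fold change were 0.06 and 0.008.

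**Figure D1:**
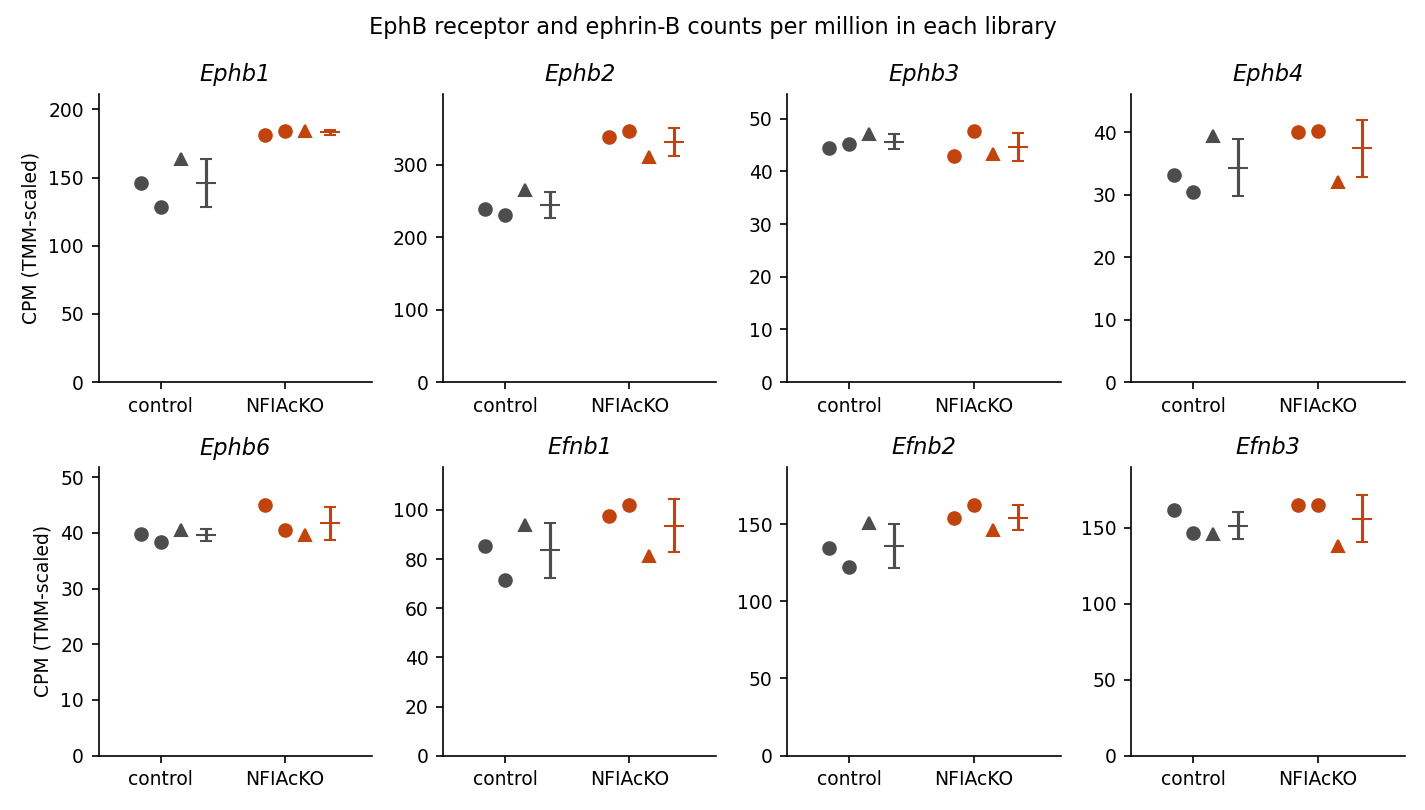
Level of the 8 genes in each library in CPM, on TMM-scaled library sizes, in the libraries labelled control (grey) and NFIAcKO (orange). Points run from replicate 1 to 3, triangles mark replicate 3 (the file-name number shared by 2 libraries), and the bar at the right of each group is the mean ± SD (n = 3). The groups are apart for Ephb1 and Ephb2 and overlap in the other 6 panels.

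Ephb2, a receptor of commissural and motor axons, stood at 239, 230 and 264 CPM in replicates 1 to 3 labelled control and at 338, 346 and 310 CPM in replicates 1 to 3 labelled NFIAcKO. Every library labelled NFIAcKO lay above every library labelled control, with replicate 3 of the 2 groups closest to each other. The means were 244 ± 17.8 and 331 ± 18.9 CPM (SD, n = 3; log2 fold change 0.44, SE 0.08, edgeR adjusted p = 0.0075). Its p ranked 263 among the 17711 genes. The call was lost without control replicate 1 (edgeR adjusted p = 0.0504), where 2.76% of all tested genes passed. It held when any one of the other 5 libraries was dropped.

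Ephb1, the receptor best known from medial limb-innervating motor neurons and from retinal axons that stay uncrossed, stood at 146, 129 and 164 CPM in the libraries labelled control. In those labelled NFIAcKO it stood at 181, 184 and 184 CPM. The 3 libraries labelled NFIAcKO lay close together, those labelled control were spread, and the groups did not overlap. The means were 146 ± 17.5 and 183 ± 1.51 CPM (SD, n = 3; log2 fold change 0.33, SE 0.09, edgeR adjusted p = 0.027). When libraries were dropped one at a time, this call held only without control replicate 3. Dropping control replicate 1 or 2 ended it (edgeR adjusted p = 0.115 and 0.077), as did dropping NFIAcKO replicate 1, 2 or 3 (0.105, 0.0877 and 0.104). Over all tested genes, 28.4% passed without control replicate 3 and 2.48 to 6.16% without another single library, against 13.9% with all 6. A predicted non-coding gene, Gm26846, overlaps 152 bp of the exons of Ephb1 on the opposite strand, and since the strand setting of the counting is not given in the sources used here, reads of the overlap cannot be assigned to one gene.

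On GRCm38, Ephb2 (ENSMUSG00000028664.14) spans chr4:136647539-136835988 on the minus strand with 12608 bp of annotated exons. Ephb1 (ENSMUSG00000032537.15) spans chr9:101922128-102354693, also on the minus strand, with 7002 bp. The sequences just upstream of these 2 genes are shown because they are the members that rose and the study concerns an NFI factor. They are the 250 bases before each RefSeq start site (GRCm38.p6), 5′ to 3′ on the strand of the gene, at chr4:136836013-136836262 for Ephb2 and chr9:102354694-102354943 for Ephb1. Capitals mark matches, on either strand, to the NFI half-site TTGGC or to the CCAAT box. These motifs overlap where an antisense CCAAT box, ATTGG as printed, is followed by C, as in Ephb2.
Ephb2: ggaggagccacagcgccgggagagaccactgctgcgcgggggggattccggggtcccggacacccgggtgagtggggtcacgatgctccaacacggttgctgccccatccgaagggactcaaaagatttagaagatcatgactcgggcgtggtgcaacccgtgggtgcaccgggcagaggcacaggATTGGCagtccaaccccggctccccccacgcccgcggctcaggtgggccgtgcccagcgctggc
Ephb1: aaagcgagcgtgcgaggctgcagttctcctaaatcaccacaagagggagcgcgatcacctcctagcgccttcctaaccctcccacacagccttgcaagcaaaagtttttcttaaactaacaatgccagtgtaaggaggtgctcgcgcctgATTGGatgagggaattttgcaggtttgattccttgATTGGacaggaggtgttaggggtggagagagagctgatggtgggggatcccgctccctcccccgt

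The Ephb2 window held 1 NFI half-site, at -63 to -59 from the start site, which shares its bases with the CCAAT match at -64 to -60. The Ephb1 window held no half-site and 2 CCAAT matches, at -100 to -96 and -65 to -61. Of the 7 members with an upstream sequence in the table, 5 held an NFI half-site: Ephb2, Ephb3, Ephb4, Efnb1 and Efnb2. In all 32851 upstream windows of the same length, 41.5% held the half-site and 33.9% a CCAAT box. The full palindrome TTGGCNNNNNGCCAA was in none of the 7 and in 0.0365% of all windows. The half-site was thus present in 1 of the 2 members that rose and in 4 of the 5 other members matched, and absent from Ephb1 and Ephb6. Efnb3 was not matched.

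The other members lie on GRCm38 as follows. Ephb3 spans chr16:21204755-21223305 on the plus strand with 6641 bp of exons. Ephb4 spans chr5:137350109-137378669 on the plus strand with 4640 bp, and Ephb6 chr6:41605482-41620509 on the plus strand with 3773 bp. Of the ligand genes, Efnb1 spans chrX:99136130-99148991 on the plus strand with 3452 bp, Efnb2 chr8:8617434-8661242 on the minus strand with 6855 bp, and Efnb3 chr11:69554092-69560205 on the minus strand with 3183 bp. A count per gene symbol does not separate isoforms.

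Ephb3, a receptor that acts with Ephb2 in commissural tracts, showed no difference beyond the spread between libraries. It stood at 44.4, 45.1 and 47.2 CPM in the libraries labelled control and at 43.0, 47.6 and 43.2 CPM in those labelled NFIAcKO. The groups overlapped, and both extremes lay in the libraries labelled NFIAcKO. It was the only member with a negative log2 fold change (-0.03, SE 0.08, edgeR adjusted p = 0.84).

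Ephb4, the receptor of venous endothelium, stood at 33.1, 30.5 and 39.3 CPM in the libraries labelled control and at 40.0, 40.2 and 32.1 CPM in those labelled NFIAcKO (log2 fold change 0.12, SE 0.11, edgeR adjusted p = 0.50). In replicates 1 and 2 the library labelled NFIAcKO was the higher one, and in replicate 3 the lower. Of 10 endothelial markers 4 rose (Cdh5, Kdr, Flt1 and Pecam1), 2 fell (Cldn5 and Esam) and 4 did not pass. With the replicate block 3 rose and 2 fell. Their summed level was 347 to 406 CPM in libraries labelled control and 421 to 458 CPM in libraries labelled NFIAcKO, none of the 10 was at 0, and their part in the levels of Ephb4 and of the arterial ligand gene Efnb2 was not tested. Zan overlaps 33 bp of the exons of Ephb4 on the opposite strand.

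Ephb6, whose kinase domain is inactive, stood at 39.8, 38.4 and 40.4 CPM in the libraries labelled control and at 45.1, 40.5 and 39.5 CPM in those labelled NFIAcKO. The groups overlapped, and NFIAcKO replicate 1 was the highest library. Its log2 fold change was 0.08 (SE 0.09, edgeR adjusted p = 0.60).

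Efnb3, the ephrin-B of the floor plate and midline, had the highest level per length of the 8, as given below. It stood at 161, 146 and 146 CPM in libraries labelled control and at 165, 165 and 138 CPM in libraries labelled NFIAcKO. The lowest library was NFIAcKO replicate 3, and the groups overlapped (log2 fold change 0.04, SE 0.09, edgeR adjusted p = 0.78).

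Efnb2, the ephrin-B of arterial endothelium and also of neural cells, stood at 134, 123 and 151 CPM in libraries labelled control and at 154, 163 and 146 CPM in libraries labelled NFIAcKO. Only replicate 3 broke the separation, being higher in the library labelled control. Its log2 fold change was 0.18 (SE 0.09, edgeR adjusted p = 0.18), and it passed the test when control replicate 3 was left out (0.26, edgeR adjusted p = 0.018). In that fit 28.4% of all tested genes passed (14.8% higher), against 13.9% with all 6 libraries.

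Efnb1, the X-linked ephrin-B of progenitors and mesenchyme, stood at 85.4, 71.4 and 93.8 CPM in the libraries labelled control and at 97.4, 102 and 81.4 CPM in those labelled NFIAcKO (log2 fold change 0.16, SE 0.11, edgeR adjusted p = 0.33). Its lowest and highest libraries were the female embryos of the 2 groups. The log2 ratio was 0.52 in the female pair and -0.0036 over the 4 male embryos. Of the male libraries, the one labelled NFIAcKO was higher in replicate 1, as in the female pair, and lower in replicate 3. Each group held a single female embryo. The interaction of group with sex missed the threshold (difference -0.52, SE 0.18, edgeR adjusted p = 0.48), where 0.0339% of tested genes passed. As a class, 0 of the 3 ligands passed in edgeR, where 0 also had an unadjusted p under 0.05. In DESeq2 and limma-voom 0 passed, with 1 higher at an unadjusted p under 0.05 in DESeq2 and 0 in limma-voom.

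The levels of the members can be compared only per length. Per kilobase of annotated exons, Efnb3 was highest in the libraries labelled control at 47.5 ± 2.75 CPM per kb (SD, n = 3), followed by Efnb1 at 24.2 ± 3.28, Ephb1 at 20.8 ± 2.51, Efnb2 at 19.8 ± 2.05 and Ephb2 at 19.4 ± 1.41. The ranges of these last 4 overlapped from one to the next. Ephb6 followed at 10.5 ± 0.277, with Ephb4 at 7.40 ± 0.982 and Ephb3 at 6.86 ± 0.213 CPM per kb below it and not separated from each other. Efnb3 stayed first and the receptors Ephb6, Ephb3 and Ephb4 last when levels were taken per kilobase of the longest coding transcript, but the middle order changed to Ephb1, Efnb2, Efnb1 and Ephb2.

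Among the receptors, Ephb2 took a larger share of the summed level per kb in the libraries labelled NFIAcKO, and Ephb3, Ephb4 and Ephb6 took smaller ones. The share of Ephb2 went from 29.9 ± 0.443% to 33.6 ± 0.643% (SD, n = 3), without overlap. That of Ephb3 went from 10.6 ± 0.637% to 8.58 ± 0.422%, that of Ephb6 from 16.2 ± 0.904% to 14.1 ± 0.812% and that of Ephb4 from 11.4 ± 0.577% to 10.3 ± 0.896%, also without overlap. Ephb1 took 32.0 ± 1.34% and 33.4 ± 1.46%, with overlap. Shares within a class are bound together, since a higher Ephb2 lowers the others by itself, and no test was made on them. They are shares of levels as counted, which carry the length trend of the libraries, and Ephb2 is the longest member. With that trend and the GC trend removed, the log2 fold change was 0.13 for Ephb2 and 0.20 for Ephb1. The summed level of the 5 receptors was 65.0 ± 5.29 CPM per kb in libraries labelled control and 78.2 ± 3.05 in libraries labelled NFIAcKO, and that of the 3 ligands 91.5 ± 6.07 and 98.6 ± 9.06. The receptor sums did not overlap between groups (60.2 to 70.6 against 74.7 to 80.3), and the ligand sums did (84.5 to 95.0 against 88.2 to 105). Ephb1 and Ephb2 held the largest shares of the receptor sum, and the sums carry the length trend too. The gap in the receptor sums is thus not a result apart from the rises of those genes. Among single genes, 33.4% of all tested also showed no overlap. A difference between the classes was not tested.

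The 2 receptors that rose have the longest exonic sequence of the 8 members. Genes in the longest eighth of tested genes (8658 bp and above), where Ephb2 lies, had a median log2 fold change of 0.21, and those of 6326 to 8654 bp, which include Ephb1, Efnb2 and Ephb3, a median of 0.11. When a trend with length and GC content was removed from each library, the log2 fold change of Ephb2 went from 0.44 to 0.13 (SE 0.06, edgeR adjusted p = 0.21) and that of Ephb1 from 0.33 to 0.20 (SE 0.07, edgeR adjusted p = 0.075). No member passed in that fit, where 7.69% of all genes did (3.82% higher, 3.87% lower). At an unadjusted p under 0.05, 1 receptor was higher (Ephb1) and 1 lower (Ephb3, log2 fold change -0.20, SE 0.08, edgeR adjusted p = 0.11). The order of the receptors was thus different with the trend removed, with Ephb1 above Ephb2 and Ephb3 furthest below 0. Among the ligands the log2 fold change went, for Efnb1, from 0.16 to 0.14, for Efnb2 from 0.18 to 0.07 and for Efnb3 from 0.0439 to 0.0394.

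**Figure D2:**
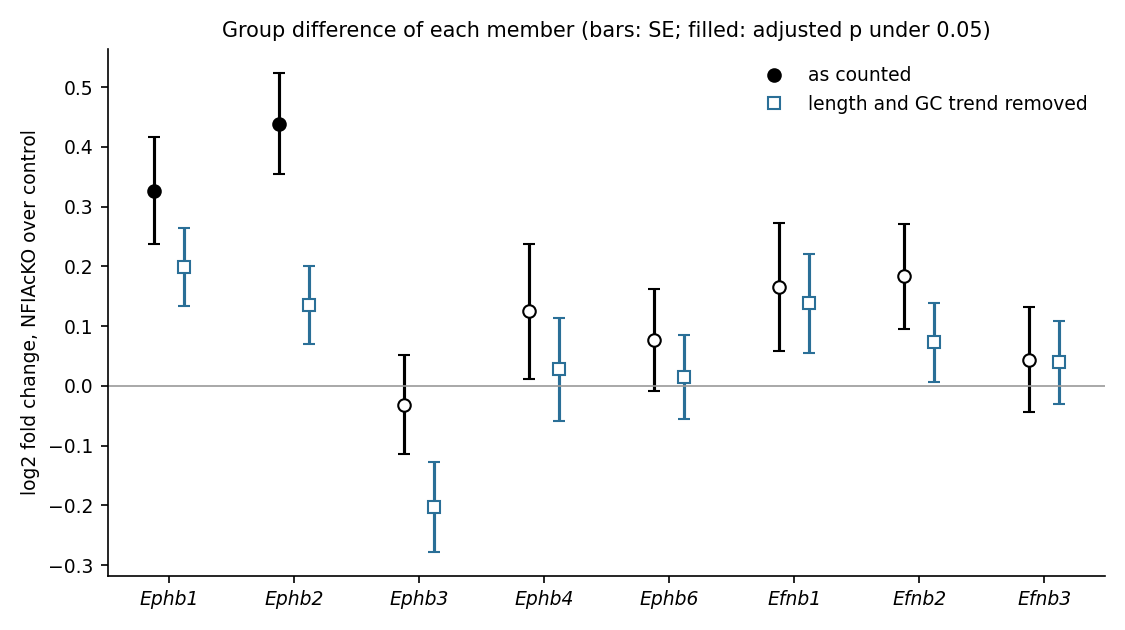
Log2 fold change of each member, NFIAcKO over control, with its SE, as counted (circles) and with the length and GC trend of each library removed (squares). Filled symbols have an edgeR adjusted p under 0.05, which only Ephb1 and Ephb2 as counted reach.

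**Figure D3:**
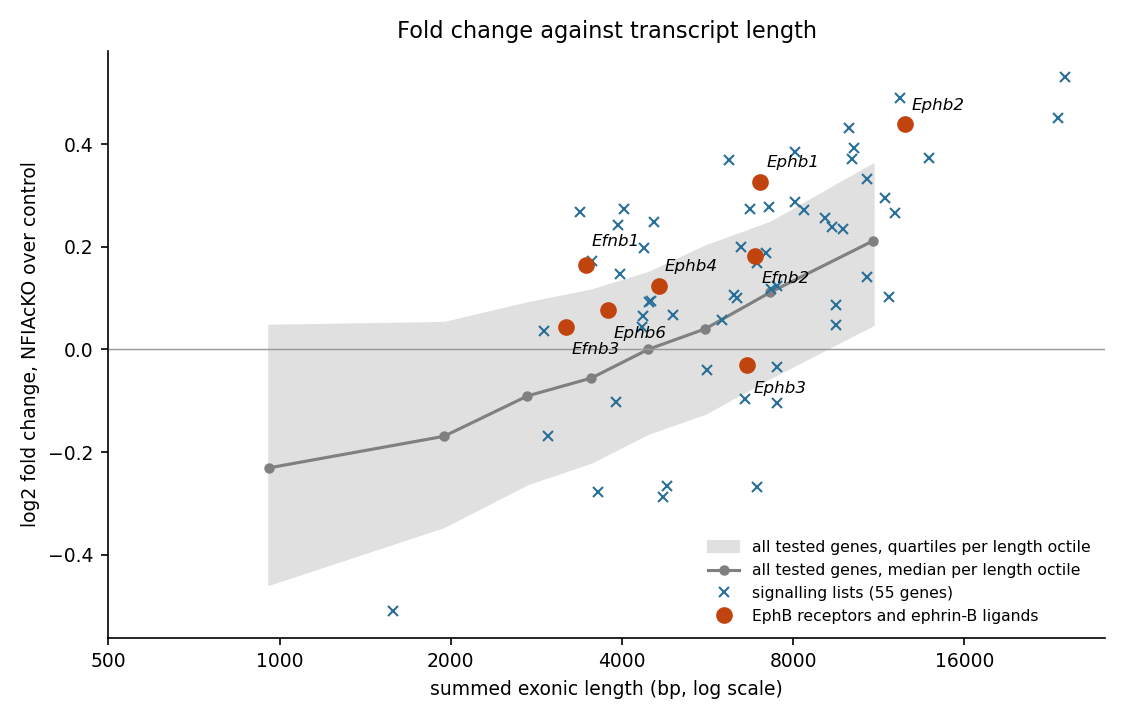
Log2 fold change against summed exonic length (bp, log scale) for the 8 members (orange), the 55 genes of the signalling lists (blue crosses) and all tested genes (grey line and band: median and quartiles in each eighth of the genes ranked by length). The grey median climbs from -0.23 in the shortest eighth to 0.21 in the longest, and Ephb2 is the longest member, at 12608 bp.

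Replicate 3 stood apart from replicates 1 and 2 for several members. Within the 4 libraries that share a file-name number (replicates 1 and 2), 5 members rose in edgeR: Ephb1, Ephb2, Ephb4, Efnb1 and Efnb2, where 29.3% of all genes passed (16.1% higher, 13.1% lower). In the same 4 libraries the log2 fold change of Ephb4 was 0.34 (edgeR adjusted p = 0.0079), that of Efnb1 0.35 (edgeR adjusted p = 0.0020) and that of Efnb2 0.30 (edgeR adjusted p = 0.010). In the replicate 3 pair, 1 library against 1, the log2 ratios of the same 3 genes were -0.30, -0.20 and -0.04. Ephb1 and Ephb2 were higher in that pair too, by 0.17 and 0.23, against 0.41 and 0.54 in the other 4 libraries. The difference between the 2 sets of libraries was tested after these values were seen, with 1 library per group in the replicate 3 set, so the test takes its spread from replicates 1 and 2 alone and assumes that the lone libraries vary like them. On that assumption it passed an interaction test for Ephb4 (-0.63, SE 0.18, edgeR adjusted p = 0.040) and Efnb1 (-0.55, SE 0.16, edgeR adjusted p = 0.041), a threshold that 1.55% of all genes passed, and missed it for the other 6 members. With the length and GC trend removed it passed for no member by edgeR (adjusted p = 0.35 for Ephb4 and 0.32 for Efnb1), with both at an unadjusted p under 0.05 (0.014 and 0.010), and 0.316% of genes passed. The endothelial markers summed to 382, 347 and 406 CPM in replicates 1 to 3 labelled control and to 458, 449 and 421 CPM in replicates 1 to 3 labelled NFIAcKO, so that their difference too was smaller in replicate 3, and their part in this difference was not tested.

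**Figure D4:**
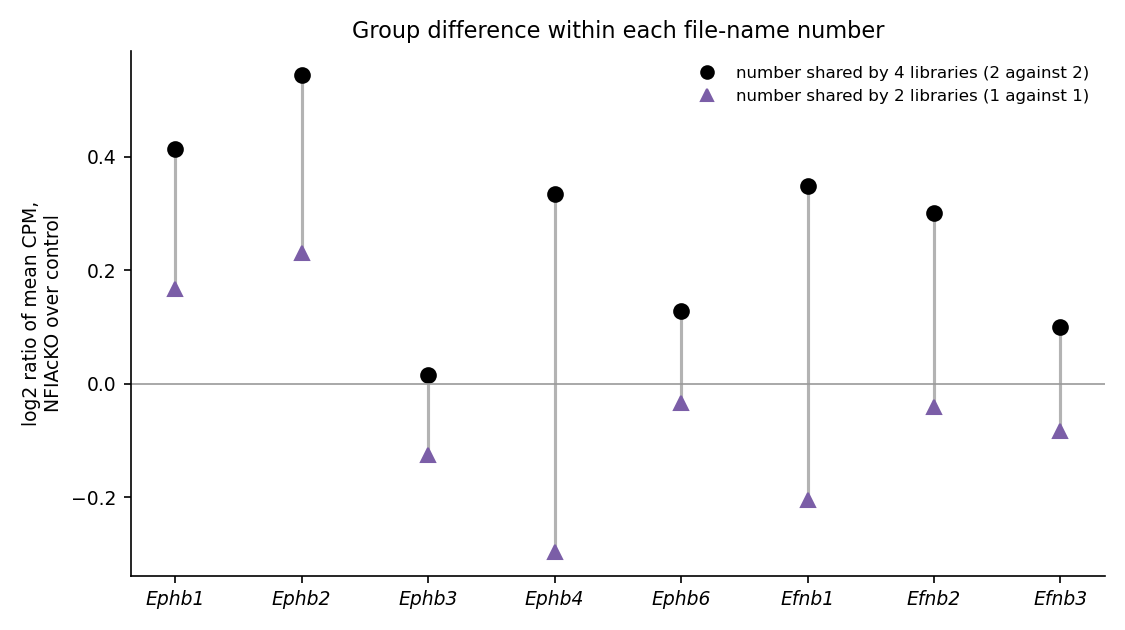
Log2 ratio of mean CPM, NFIAcKO over control, for each member within the 4 libraries sharing one file-name number (circles, 2 against 2) and within the 2 sharing the other (triangles, 1 against 1). The triangle lies below the circle for each member and above 0 for Ephb1 and Ephb2 alone, with the widest gap in Ephb4 (0.33 and -0.30). How many of all tested genes show the same was not counted.

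Across the 6 libraries, members differed in which others they resembled. Likeness was measured as the root mean square (RMS) difference of log2 CPM, each gene centred on its own mean, over 6 libraries. The closest pair of members was Ephb4 and Efnb1 (RMS 0.0513 log2 units), followed by Efnb1 and Efnb2 (0.0716), while Ephb2 was closest to Ephb1 (0.0867) and furthest from Ephb3 (0.243). Among 14789 candidate genes, those most like Ephb2 were L3mbtl3 (RMS 0.0197), Map3k13 (0.0265) and Foxn3 (0.0289), each higher in the libraries labelled NFIAcKO. These 3 genes also have long exonic sequence, of 9713, 8714 and 11501 bp. The points share the group difference and the length trend of the libraries.

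Both listed A-class genes whose products cross over to bind the B class rose. Over all tested genes 7.86% were higher and 6.08% lower. Epha4, a receptor for ephrin-B2 and ephrin-B3 that sends limb motor axons dorsally, stood at 143, 138 and 146 CPM in libraries labelled control and at 190, 184 and 183 CPM in libraries labelled NFIAcKO. The groups did not overlap (log2 fold change 0.38, SE 0.07, edgeR adjusted p = 0.0075). It kept its call with the trend removed (0.27, edgeR adjusted p = 0.022) and lost it without control replicate 1 and NFIAcKO replicate 1 (0.0512 and 0.0545). Efna5, an ephrin-A that also binds EphB2, was at 47.0 ± 4.12 and 56.8 ± 2.33 CPM in the 2 groups (SD, n = 3; log2 fold change 0.27, SE 0.09, edgeR adjusted p = 0.047). Its call held with the trend removed (0.34, edgeR adjusted p = 0.028). Of the libraries dropped one at a time, only control replicate 3 could be spared, and without any of the other 5 the adjusted p ran from 0.071 to 0.183.

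Genes that carry forward signals from an active Eph receptor were in part higher. Of 28 kinases, adaptors and exchange factors, 8 rose, 1 fell and 19 did not pass, with a median log2 fold change of 0.11. Over all tested genes 7.86% rose and 6.08% fell, the background for the lists that follow too. Kalrn, an exchange factor that EphB receptors use to remodel actin in spines, was at 87.0 ± 5.13 CPM in libraries labelled control and 126 ± 13.3 in libraries labelled NFIAcKO (SD, n = 3; log2 fold change 0.53, SE 0.09, edgeR adjusted p = 0.0049). Itsn1, an exchange factor for Cdc42 that binds EphB2, rose by 0.45 on the log2 scale (edgeR adjusted p = 0.0065), and Tiam1, an exchange factor for Rac, by 0.43 (0.0073). The adaptor Crk fell by 0.29 (edgeR adjusted p = 0.043). Kalrn and Itsn1 have 24050 and 23425 bp of exons, and with the trend removed none of these 4 passed (edgeR adjusted p = 0.108 for Kalrn, 0.689 for Itsn1, 0.0726 for Tiam1 and 0.0502 for Crk), while Wasl and Pak1 of the same list rose. Crk kept a log2 fold change of -0.24 with the trend removed, and with the replicate block as well it passed (-0.23, edgeR adjusted p = 0.042). Wasl, which drives actin branching, and the kinase Pak1 were named after their values were seen (log2 fold change 0.36 and 0.27, edgeR adjusted p = 0.024 and 0.039). As counted, Wasl rose as well and Pak1 missed the threshold (edgeR adjusted p = 0.015 and 0.068). Kalrn, Itsn1 and Tiam1 kept their calls as counted whichever of the 6 libraries was dropped. Crk kept its call only without control replicate 3, with adjusted p from 0.0877 to 0.184 in the others.

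Of 13 genes listed for reverse signalling at the ephrin-B tail, 2 rose, 1 fell and 10 did not pass, with a median log2 fold change of 0.14. With the replicate number as a block, 1 rose and 2 fell. Grip1, a scaffold with PDZ domains that docks on ephrin-B, rose by 0.29 on the log2 scale (edgeR adjusted p = 0.033), and Pdzrn3, a ubiquitin ligase with PDZ domains, by 0.28 (0.038, or 0.054 with the block). The polarity protein gene Pard6a fell by 0.51 (SE 0.13, edgeR adjusted p = 0.022). With the trend removed, Grip1, Pdzrn3 and Pard6a did not pass (edgeR adjusted p = 0.164, 0.260 and 0.070), and the median was -0.04. Sdcbp, the gene of the PDZ protein syntenin, named after its values were seen, fell in that fit (-0.27, edgeR adjusted p = 0.042) and missed the threshold as counted (0.055). With libraries dropped singly, Grip1 and Pdzrn3 each kept their calls only without control replicate 3, with adjusted p from 0.0953 to 0.131 and from 0.100 to 0.146 in the others. Pard6a kept its call without control replicate 3 and without NFIAcKO replicate 2, with adjusted p from 0.0774 to 0.101 in the others.

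Of 12 genes for proteases, phosphatases and other factors that end Eph and ephrin contacts, 2 rose, 1 fell and 9 did not pass, with a median of 0.18. Cbl, a ubiquitin ligase that takes active Eph receptors off the surface, was at 69.8 ± 6.50 and 98.0 ± 2.48 CPM in the 2 groups (SD, n = 3; log2 fold change 0.49, SE 0.08, edgeR adjusted p = 0.0049). Its call held whichever of the 6 libraries was dropped, and again with the trend removed (0.26, edgeR adjusted p = 0.033). Ptpro, a phosphatase of Eph receptors, rose by 0.27 (edgeR adjusted p = 0.025), and Acp1, the low molecular weight phosphatase of this pathway, fell by 0.28 (0.044). Both lost their calls with the trend removed (edgeR adjusted p = 0.0959 and 0.240), and each kept its call only when control replicate 3 was the library dropped, with adjusted p from 0.0516 to 0.134 and from 0.0872 to 0.168 in the others. Over the 4 lists together, 14 of 55 genes rose and 3 fell, with a median log2 fold change of 0.17, beside 7.86% higher, 6.08% lower and a median of -0.01 over all tested genes. Of the 55, 44 had a positive log2 fold change, against 8661 of all 17711 tested genes. The median exonic length of the 55 was 6904 bp, against 3976 bp for all tested genes. With the trend removed 6 of the 55 rose and 1 fell, with a median of 0.06, beside 3.82% higher and 3.87% lower over all tested genes.

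**Figure D5:**
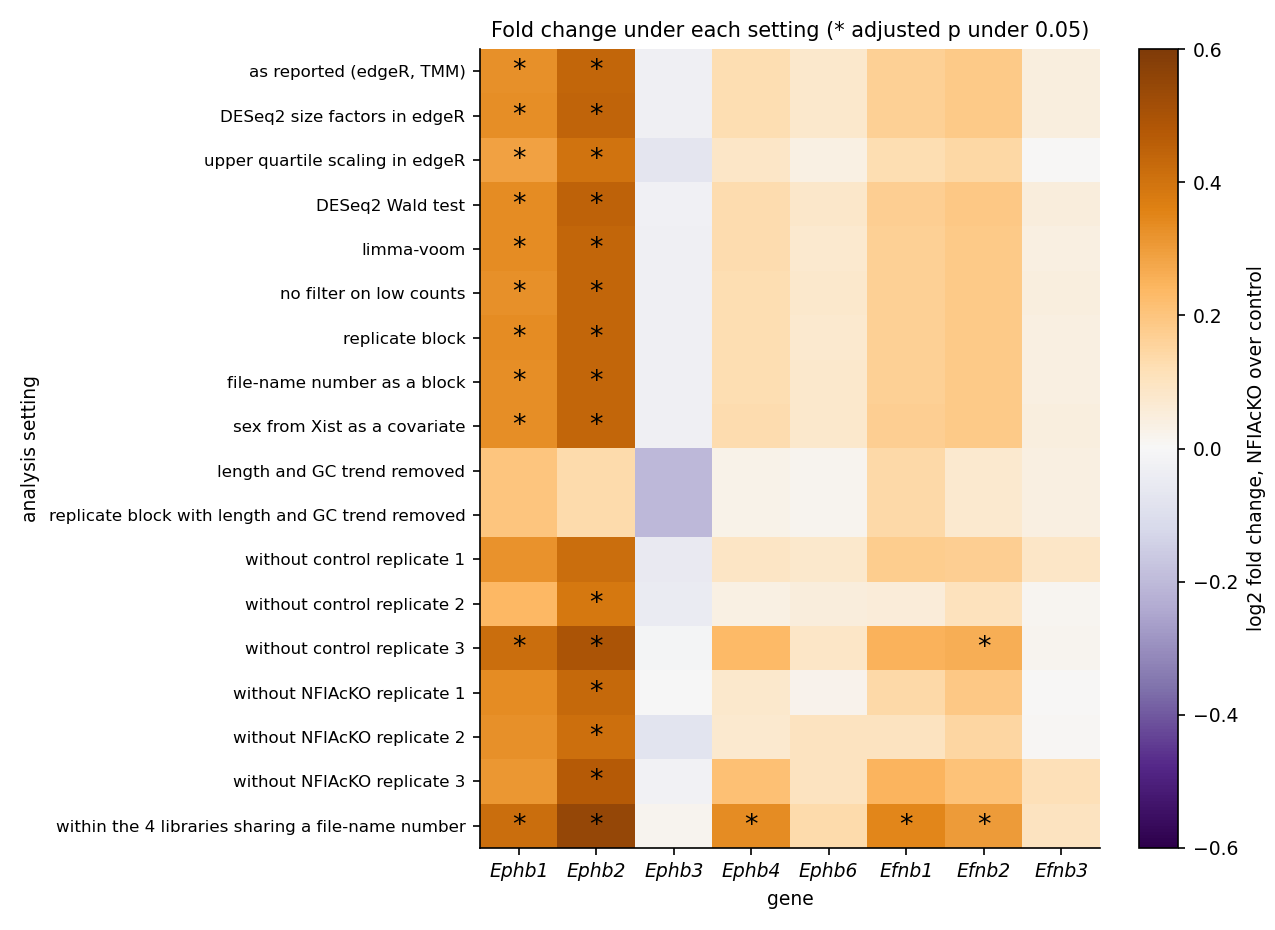
Log2 fold change of each member (columns; colour scale in log2 units, orange higher and purple lower in the libraries labelled NFIAcKO) under each analysis setting (rows), with a star where the adjusted p is under 0.05. Ephb2 keeps its star in all settings but 3, Ephb1 loses it in 7, and Ephb4, Efnb1 and Efnb2 gain one within the 4 libraries sharing a file-name number, as Efnb2 does without control replicate 3.

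Markers of other cells that a dissected cord could hold had the following levels. Of 8 progenitor markers 1 rose and 2 fell in edgeR, with sums of 2364 to 2555 CPM in libraries labelled control and 2264 to 2541 CPM in libraries labelled NFIAcKO. Of 8 mesenchymal markers 0 passed in edgeR, DESeq2 or limma-voom, with 1 higher and 1 lower at an unadjusted p under 0.05 in edgeR, and their sums ran from 1317 to 1697 and from 1527 to 2107 CPM. Of 8 sensory ganglion markers 1 rose, with sums of 233 to 249 and 229 to 242 CPM. Of 5 tested Schwann cell markers 1 fell (0 with the replicate block and 0 in limma-voom), with sums of 39.4 to 58.0 and 35.0 to 46.3 CPM, and Foxd3, of early crest glia, had 0 to 1 counts a library. Muscle markers summed to 3.69 to 7.25 and 4.17 to 8.09 CPM, with 0 of 5 past an unadjusted p of 0.05 in edgeR, and the muscle factor gene Myod1 had 2 to 16 counts a library. Erythroid markers summed to 865 to 984 and 461 to 1031 CPM, with 0 of 6 past an unadjusted p of 0.05 in edgeR and 1 lower in limma-voom. In limma-voom 0 muscle and 0 erythroid markers passed, and in DESeq2 0 erythroid markers did, while no muscle marker was given an adjusted p there. The part of these cells in the levels of the 8 members was not tested.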

How the data were processed

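Stranded mRNA libraries from 3 embryos per group were sequenced, and the authors deposited 1 table of raw read counts per gene symbol for each library. STAR 2.6.1a, HTSeq, DESeq2 and mm10 are listed, without roles, in the submitters' processing notes. Which annotation release and strand setting were used is not given in the sources used here. Summary lines that name no gene (16.9 to 19.4% of a file's total) were left out. Floors of 3 counts correspond to 0.0583 to 0.0691 CPM on library sizes without TMM scaling, and cover counting error only. Counts were tested with edgeR 4.0.16 (R 4.3.3; TMM, filterByExpr, robust quasi-likelihood F test, Benjamini-Hochberg adjustment over 17711 genes), and every adjusted p is from that test unless another tool is named. CPM used TMM-scaled library sizes, and a log2 fold change is NFIAcKO over control. Its SE was derived from the test, as the absolute log2 fold change divided by the square root of the F statistic. Exonic lengths, GC content and gene identifiers came from GENCODE on GRCm38 by symbol, for 98.8% of tested genes, and upstream sequences from RefSeq (GRCm38.p6), matched for 7 of 8 members. For the trend removal, natural splines of length and GC content (5 degrees of freedom) were fitted to each library over genes with mean log2 CPM above 1 and entered as offsets.

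The replicate numbers of the sample titles were checked for pairing. Deviations from the group means over 13122 genes correlated at 0.353, 0.397 and 0.193 between libraries of the same number and at -0.327 to 0.0888 between the others, so the numbers were taken to pair the samples. Deviations within a group are bound together, so these correlations are not independent of each other. The main fit, which gave the adjusted p-values unless stated, had no replicate block. Alternatives were that block, the file-name number as a block, sex as a covariate, other scalings, DESeq2 1.42.0, limma-voom (limma 3.58.1), no filter, each library left out and the 4 libraries of 1 file-name number alone. The fitting code was tested on simulated counts. Named genes were all 8 members, Nfia, up to 4 genes per signalling list and direction by smallest p among those that passed, and the 3 genes most like the member with the smallest p. One gene that this rule names is not reported here. The members and lists were chosen with earlier results of these data known.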

Additional observations from a re-analysis of the deposited data

Results flagged for a closer look

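Several members moved in opposite directions in the 4 libraries that share one file-name number (replicates 1 and 2) and in the 2 that share the other (replicate 3). Those listed first had no overlap of the groups in either set. How many of all tested genes did the same was not counted, so this is not shown to be a trait of these members. The log2 ratio of NFIAcKO over control was 0.33 and -0.30 for Ephb4, 0.35 and -0.20 for Efnb1, 0.30 and -0.0416 for Efnb2, 0.13 and -0.0329 for Ephb6 and 0.10 and -0.0832 for Efnb3, in that order of libraries. Ephb3 changed sign too (0.0163 and -0.126), but its groups overlapped in the 4 libraries. By the interaction test in edgeR the difference was -0.63 for Ephb4 (adjusted p = 0.040) and -0.55 for Efnb1 (adjusted p = 0.041), and it missed the threshold for Efnb2, Ephb6 and Efnb3 (adjusted p = 0.31, 0.74 and 0.66). The second set holds 1 library per group, so this p rests on the spread within replicates 1 and 2 alone, and a miss does not show that a member was alike in both sets. Both embryos of that set were males, and embryo, file-name number and replicate number cannot be told apart in it. Ephb3 was higher in the female pair (log2 ratio 0.0775) and lower over the male embryos (-0.0879), a difference that missed the threshold in edgeR (adjusted p = 0.83).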

How the results depend on the processing

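Of the 8 members, 2 were higher as reported and 0 lower. The number higher was 0 with the length and GC trend removed, with and without the replicate block, 5 within the 4 libraries sharing a file-name number and 0 to 3 when a library was left out, while 0 were lower under every alternative run. Ephb3 turned from -0.0312 to 0.0183 within the 4 libraries, and the cause was not tested. With the trend removed, signalling genes higher went from 14 to 6 (6 with the block) and lower from 3 to 1 (2 with the block), and all tested genes from 1392 to 676 higher (707 with the block) and from 1076 to 686 lower (792 with the block). limma-voom gave 1 signalling gene lower. Within the 4 libraries these counts were 28 and 5 for signalling genes and 2888 and 2356 for all genes. Leaving out a library gave 4 to 25 signalling genes higher and 0 to 6 lower, and 282 to 2703 of all genes higher and 139 to 2466 lower, on 1 library fewer. The highest counts came without control replicate 3, where 28.4% of all tested genes passed, against 2.48 to 6.16% without another single library. With upper quartile scaling 1057 genes were higher and 1434 lower, and Efna5, Grip1 and Pdzrn3 lost their calls (adjusted p = 0.0748, 0.0547 and 0.0564). limma-voom lost Efna5, Crk and Acp1 (0.0539, 0.0522 and 0.0503). With the replicate block, which takes the pairing into account, Ephb2 had adjusted p = 0.0115, Ephb1 0.0280 and Nfia 0.0029. Among named genes the block alone changed no call but that of Pdzrn3, and added to the trend removal it changed those of Crk (0.0502 to 0.0423) and L3mbtl3 (0.0492 to 0.0599). Nfia kept its direction and its call under every alternative run (0.62 to 0.90 on the log2 scale).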
